A study of Mus musculus with 16 samples.

Results

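Annexins are calcium-dependent membrane-binding proteins, and small S100 proteins bind several of them. This account follows 8 annexin genes (Anxa1, Anxa2, Anxa3, Anxa4, Anxa5, Anxa6, Anxa7 and Anxa11) and 2 S100 partner genes (S100a10 and S100a11) in mouse embryonic stem cells, with and without Dgcr8. The members were found by matching gene symbols to the Ensembl identifiers of the expression table, which gave 10 of its 41258 entries. They were chosen by family name and on measured values, namely that Anxa2 and Anxa6 FPKM differed between the genotypes in opposite directions, so every difference between genotypes below is a description without a test. Wild-type (WT) and Dgcr8-/- (knockout, KO) cells, both from a 129/C57BL/6 background at passages 9 to 11, were grown in 2iL (a medium holding inhibitors of MEK and GSK3 together with LIF) or moved for 48 h to N2B27 medium with bFGF and KSR. Each of the 4 groups had 2 libraries, and expression was deposited as FPKM, a level scaled to transcript length and library size. WT cells carry the label v65 and knockout cells the label ES1. There was thus 1 line per genotype, and a difference between genotypes cannot be told apart from a difference between lines. What separates the 2 replicates of a group (culture, passage or day) is not given in the sources used here, so the p-values measure the spread between these libraries.

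The annexin core binds calcium ions that bridge it to acidic phospholipids such as phosphatidylserine. The variable N-terminal tail carries the binding sites for partners. Anxa2 and S100a10 form a heterotetramer in which a pair of S100a10 chains joins a pair of Anxa2 chains under the plasma membrane, and Anxa1 binds S100a11 in a similar way. S100a10 has lost the ability to bind calcium, unlike most S100 proteins. Anxa6 differs from the other annexins by a duplicated core. Anxa7 and Anxa11 have long N-terminal tails, and annexins as a group act in membrane repair, vesicle traffic and links between membrane and actin. Dgcr8 encodes the partner of the nuclease Drosha in the processing of most miRNA precursors.

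The upstream sequences of 3 members are shown because they stand for the expression patterns described below: Anxa2 and S100a11 took different courses in the genotypes, while Anxa11 was higher at 48 h in both. Each is the 250 bases before an annotated start in RefSeq (GRCm38.p6), 5′ to 3′ on the strand of the gene. The Anxa11 stretch runs past 25842127, where the span given below for that gene begins, so its end lies within that span. Capitals mark matches, on either strand, to the GC box GGGCGG, the CCAAT box CCAAT, the TATA element TATAAA and the AP-1 type motif TGANTCA.
Anxa2, chr9:69453433-69453682, plus strand: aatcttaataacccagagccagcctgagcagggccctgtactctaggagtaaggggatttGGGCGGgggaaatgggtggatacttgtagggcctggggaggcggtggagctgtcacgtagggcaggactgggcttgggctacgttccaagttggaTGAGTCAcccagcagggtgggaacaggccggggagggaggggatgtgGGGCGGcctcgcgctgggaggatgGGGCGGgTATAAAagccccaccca
S100a11, chr3:93520246-93520495, plus strand: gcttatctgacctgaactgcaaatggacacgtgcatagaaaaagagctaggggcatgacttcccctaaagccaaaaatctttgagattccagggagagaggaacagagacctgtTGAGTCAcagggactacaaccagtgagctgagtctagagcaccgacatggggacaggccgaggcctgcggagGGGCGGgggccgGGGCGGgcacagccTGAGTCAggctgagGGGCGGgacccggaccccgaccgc
Anxa11, chr14:25841905-25842154, plus strand: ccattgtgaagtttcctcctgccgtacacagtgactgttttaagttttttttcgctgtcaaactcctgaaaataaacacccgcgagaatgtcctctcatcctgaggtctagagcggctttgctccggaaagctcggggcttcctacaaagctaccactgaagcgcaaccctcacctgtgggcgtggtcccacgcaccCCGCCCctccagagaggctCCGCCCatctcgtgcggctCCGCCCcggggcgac
The Anxa2 stretch held 3 GC boxes, 1 TATA element and 1 AP-1 type motif, and the S100a11 stretch held 3 GC boxes and 2 AP-1 type motifs. The Anxa11 stretch held 3 GC boxes and neither of the other two. Among 32851 promoter windows of the same length, 32.7% held GGGCGG, 33.8% CCAAT, 12.4% TATAAA and 6.75% TGANTCA. Over the 9 windows available for 7 of the members, GGGCGG was found in 5, TATAAA in 2 (Anxa2 and Anxa1), TGANTCA in 2 (Anxa2 and S100a11) and CCAAT in 0. The window of Anxa1, whose course also differed between the genotypes, held 0 GC boxes and 0 AP-1 type motifs. These matches describe letters in the sequence. Whether any factor bound there was not measured, and a link between motifs and expression patterns was not tested.

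Facts of the whole set of libraries were as follows. Dgcr8 itself was at 18.3 to 20.9 FPKM in the 4 WT libraries and at 7.80 to 9.33 in the 4 knockout libraries, and knockout libraries thus still held Dgcr8 reads. All 10 markers of embryonic stem cells reached 1 FPKM in every library, but their levels moved with the 48 h and the genotype: 3 rose and 7 fell in each genotype. Of all tested entries, 30.9% rose and 25.6% fell in WT, and 26.5% rose and 21.8% fell in the knockout. The mean of Nanog went from 212 to 5.35 FPKM in WT and from 285 to 56.4 in the knockout, that of Esrrb from 169 to 4.85 and from 183 to 49.6, and that of Zfp42 from 199.6 to 20.5 and from 161 to 117. Lin28a, a target of let-7 miRNAs, had a mean of 105 FPKM in WT and 1.10 in the knockout in 2iL, and of 235 and 16.3 at 48 h. The summed level of 10 fibroblast and feeder markers was 2.65 to 3.51 FPKM in the 4 libraries in 2iL. At 48 h it was 21.6 to 21.8 in WT and 20.1 to 20.3 in knockout cells, with Col1a1 at 0.154 or less throughout. Within that list Dcn stood at 1.74 and 2.22 FPKM in WT and 11.9 and 12.6 in knockout cells at 48 h, and Tagln at 9.02 and 9.38 against 0.902 and 0.928. Thy1 reached 1 FPKM in all 8 libraries, at 1.39 to 2.60 FPKM in 2iL. At 48 h Thy1 was at 9.20 and 9.26 in WT and at 5.84 and 5.35 in knockout cells. The 10 endoderm markers summed to 1.73 to 3.66 FPKM, with Gata6 at 0.114 or less, Sox17 at 0.085 or less and Ttr at 0 in all libraries. Dab2, the member of that list that passed the filter, went in WT from 0.0603 and 0.154 FPKM to 1.63 and 2.32 (log2 1.42, SE 0.14). It was at 0.372 and 0.2 in the knockout at 48 h. Only the 2 WT libraries at 48 h reached 1 FPKM of Dab2. It thus entered the fit through the group in which it was high, and its change is given without a test. The 9 trophectoderm markers summed to 28.2 to 28.8 FPKM in WT cells in 2iL, 33.1 to 33.2 in WT at 48 h, 37.9 to 41.4 in knockout cells in 2iL and 36.5 in both knockout libraries at 48 h. Members of that list moved in opposite directions under these sums. Krt18 rose 13.3 times in mean FPKM in WT and 18.9 times in the knockout, and Krt8 rose 1.95 and 2.14 times. Tfap2c fell from a mean of 18.6 to 1.04 FPKM in WT and from 29.9 to 7.22 in the knockout, and Gata3 had a mean of 0.0568 FPKM in WT and 1.59 in the knockout at 48 h. The part of these markers in the annexin results was not tested.

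**Figure D1:**
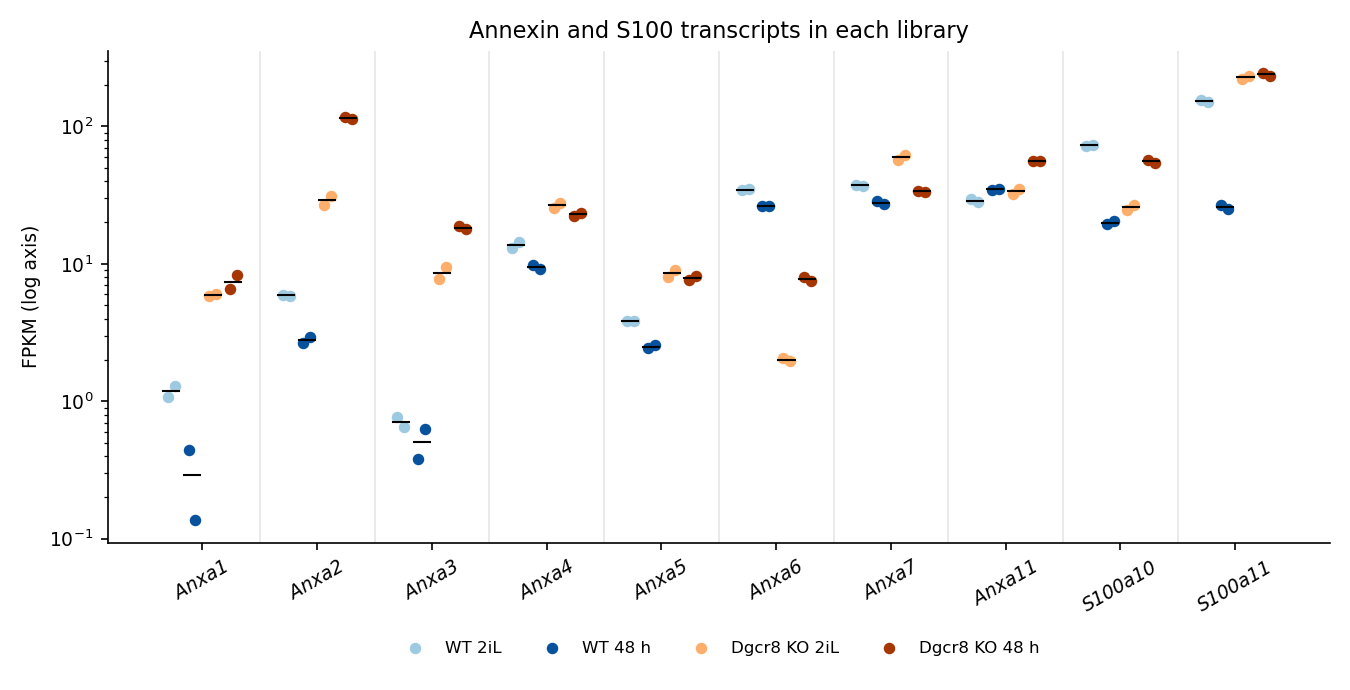
Level of each member (FPKM, log axis) in every library. Points are libraries, short black lines are the means of 2 libraries, and colours are the 4 groups. Anxa2 lies highest in the knockout at 48 h (114 and 117 FPKM) and lowest in WT at 48 h (2.67 and 2.92), whereas Anxa6 lies highest in WT in 2iL (34.4 and 34.8) and lowest in the knockout in 2iL (1.95 and 2.06).

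Most of the family was lower at 48 h than in 2iL in WT cells. By 48 h 8 of the 10 members fell and 1 rose, Anxa11, while Anxa3 was not called (log2 −0.18, SE 0.12, limma adjusted p = 0.23). In knockout cells 5 rose (Anxa2, Anxa3, Anxa6, Anxa11 and S100a10), 2 fell (Anxa4 and Anxa7) and 3 were not called (Anxa1, Anxa5 and S100a11). A call means an adjusted p below 0.05 in a limma fit of log2(FPKM + 1) over the 13172 entries that reached 1 FPKM in 2 or more libraries. In that fit 25.6% of all entries fell and 30.9% rose in WT cells, and 21.8% fell and 26.5% rose in knockout cells. The median change of the 10 members was −0.48 log2 in WT cells against 0.03 over all tested entries, and 0.50 in knockout cells against 0.03. All 10 members passed the filter on low values, 8 of them with at least 1 FPKM in all libraries. Anxa1 reached 1 FPKM in 6 libraries. Anxa3 reached it in the 4 knockout libraries, so it entered the fit through the genotype in which it was high. In bulk RNA, fewer cells that express a gene and less RNA of it per cell cannot be told apart.

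**Figure D2:**
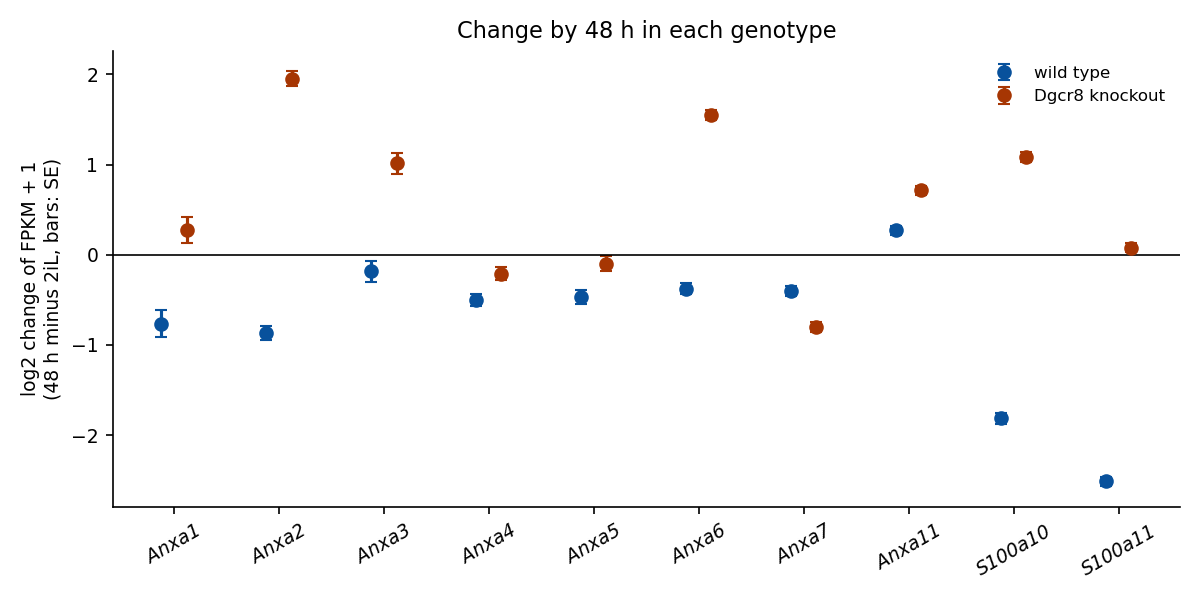
Change by 48 h (log2 of FPKM + 1, 48 h minus 2iL) of each member in WT (blue) and knockout cells (brown), with bars for the standard error from the limma fit. S100a11 and S100a10 lie lowest in WT cells (−2.52 and −1.82), and Anxa2 and Anxa6 lie highest in knockout cells (1.95 and 1.55).

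Anxa2 (chr9:69453683-69491792), the partner of S100a10 at the plasma membrane, went opposite ways. In WT cells it was at 5.95 and 5.85 FPKM in 2iL and at 2.67 and 2.92 at 48 h. In knockout cells it was at 26.9 and 31.4 FPKM in 2iL and at 117 and 114 at 48 h. The groups did not overlap in either genotype. The change by 48 h was −0.86 log2 in WT (SE 0.08, limma adjusted p = 7.5e-05) and 1.95 in the knockout (SE 0.08, limma adjusted p = 2.8e-06). The difference between these changes was 2.82 log2 (SE 0.11), given without a test. Mean Anxa2 was 4.93 times the WT level in the knockout in 2iL and 41.3 times at 48 h.

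S100a10 (chr3:93555117-93564645), the light chain of the Anxa2 tetramer, was the second most abundant member in WT cells in 2iL. It stood at 72.1 and 73.5 FPKM there and at 19.5 and 20.4 at 48 h, a fall of the mean to 0.274 of its starting level (log2 −1.82, SE 0.06, limma adjusted p = 4.9e-07). S100a10 in knockout cells began at 24.6 and 26.9 FPKM and reached 57.4 and 53.9 at 48 h, a rise of 2.17 times (log2 1.09, SE 0.06, limma adjusted p = 9.2e-06). The order of the genotypes was thus not the same in the 2 media. In 2iL both knockout libraries lay below both WT libraries, at 0.353 of the WT mean, and at 48 h both lay above, at 2.79 times the WT mean. Unlike S100a10, Anxa2 was higher in the knockout in both media.

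As FPKM is a level per length, the transcripts of the tetramer can be set side by side within a library. WT cells in 2iL held 12.1 and 12.5 FPKM of S100a10 for each FPKM of Anxa2, and WT cells at 48 h held 7.32 and 7. Knockout cells in 2iL held 0.914 and 0.856, and knockout cells at 48 h held 0.489 and 0.475. In FPKM, S100a10 therefore exceeded Anxa2 in all 4 WT libraries and lay below it in all 4 knockout libraries. In the knockout in 2iL the levels were close, with S100a10 at 24.6 and 26.9 FPKM and Anxa2 at 26.9 and 31.4. How well FPKM compares different genes was not tested, so the order there is uncertain. The protein of neither gene was measured.

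Anxa1 (chr19:20373434-20390671) and S100a11 (chr3:93520496-93526288) encode the other annexin and S100 pair. S100a11 was the most abundant member in 3 of the 4 groups. In WT cells it fell from 157 and 150 FPKM to 26.8 and 25.1, or 0.17 of the mean in 2iL, with the lowest log2 change of the 10 members (−2.52, SE 0.05, limma adjusted p = 9.1e-08). In knockout cells it was at 223 and 231 FPKM in 2iL and at 244 and 235 at 48 h. That difference of 0.08 log2 (SE 0.05) was not called (limma adjusted p = 0.24). At 48 h the knockout mean was 9.22 times the WT mean, against 1.48 times in 2iL. S100a11 and S100a10 lie on the same chromosome with 28.83 kb between them.

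Anxa1, known as a mediator of glucocorticoid action on inflammation, was low in WT cells. It was at 1.07 and 1.29 FPKM in 2iL and at 0.444 and 0.136 at 48 h. Its fall was −0.77 log2 (SE 0.15, limma adjusted p = 0.0035), and −1.83 with a pseudocount of 0.1 instead of 1, since the pseudocount compresses low values. In the knockout Anxa1 was at 5.86 and 5.99 in 2iL and, after 48 h, at 6.54 and 8.29. Those groups did not overlap, but the difference of 0.27 log2 (SE 0.15) was not called (limma adjusted p = 0.17). In both media the 2 knockout libraries lay above both WT libraries, at 5.02 times the WT mean in 2iL and 25.6 times at 48 h.

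Anxa3 (chr5:96793385-96845968), an annexin with a short N-terminal tail, stayed under 1 FPKM in all 4 WT libraries. It was at 0.764 and 0.644 FPKM in 2iL and at 0.382 and 0.630 at 48 h. In the knockout Anxa3 was at 7.79 and 9.43 before and 18.8 and 17.9 after the 48 h, a rise of 1.01 log2 (SE 0.12, limma adjusted p = 4.0e-04). The knockout mean was 12.2 times the WT mean in 2iL and 36.3 times at 48 h, both resting on WT values under 1 FPKM. In WT cells the fall of Anxa3 was called with quantile scaling alone among the settings tried (log2 −0.32, limma adjusted p = 0.045). Its limma adjusted p was 0.11 to 0.51 in the other settings, apart from 0.73 without WT 48 h replicate 1.

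Anxa6 (chr11:54978953-55033471), the annexin with the duplicated core and a regulator of cholesterol and Ras signalling at membranes, had the opposite genotype pattern. Its level in WT was 34.4 and 34.8 FPKM in 2iL, then 26.4 and 26.5. In the knockout it was 2.06 and 1.95, then 8.06 and 7.54. All 4 knockout libraries lay below all 4 WT libraries. The WT mean was 17.2 times the knockout mean in 2iL and 3.39 times at 48 h. Over the 48 h Anxa6 fell by 0.38 log2 in WT cells (SE 0.06, limma adjusted p = 0.0011) and rose by 1.55 in the knockout (SE 0.06, limma adjusted p = 1.9e-06), so that the genotypes lay closer at 48 h than in 2iL. The difference between the changes was 1.93 log2 (SE 0.08), given without a test.

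Anxa7 (chr14:20455261-20480133) and Anxa11 (chr14:25842127-25886804), the annexins with long tails that bind the calcium sensor Pdcd6, were among the leading annexins in every group. Anxa7 was at 37.2 FPKM in both WT libraries in 2iL and at 28.5 and 27.2 at 48 h. In knockout cells it was at 56.6 and 62.3 in 2iL and at 34.0 and 33.4 at 48 h. It fell in both genotypes, by 0.40 log2 in WT (SE 0.05, limma adjusted p = 6.0e-04) and by 0.80 in the knockout (SE 0.05, limma adjusted p = 3.0e-05). Anxa11, which tethers RNA granules to lysosomes, was the member called higher at 48 h in both genotypes. It was at 29.4 and 28.1 FPKM in 2iL, then 34.7 and 35.1 at 48 h in WT cells, and at 32.3 and 35.1 and then 56.4 and 55.6 in knockout cells. Its rise was 0.27 log2 in WT (SE 0.05, limma adjusted p = 0.0034) and 0.72 in the knockout (SE 0.05, limma adjusted p = 4.0e-05). In mean FPKM, Anxa7 in the knockout stood at 1.6 times WT in 2iL and 1.21 times at 48 h, and Anxa11 at 1.17 and 1.6 times.

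Anxa4 (chr6:86736840-86793634), an epithelial annexin that assembles on membranes, and Anxa5 (chr3:36448923-36475887), the phosphatidylserine binder used to label dying cells, fell in WT cells, and their changes in the knockout were small. Anxa4 was at 13.1 and 14.5 FPKM in WT cells in 2iL and at 9.74 and 9.13 at 48 h, a fall of 0.50 log2 (SE 0.07, limma adjusted p = 6.8e-04). In knockout cells it was at 25.6 and 27.6 and then at 22.4 and 23.3. That fall of 0.21 log2 (SE 0.07, limma adjusted p = 0.042) lay near the threshold. Its limma adjusted p ran from 0.022 to 0.18 over the alternatives, and the call ended in 8 of them, such as 0.18 without knockout 2iL replicate 2 and 0.17 without knockout 48 h replicate 1. The other libraries whose removal ended it were knockout 48 h replicate 2 (0.094) and WT 48 h replicates 1 (0.054) and 2 (0.055), all limma adjusted p-values. Anxa5 was at 3.83 and 3.81 FPKM and then at 2.43 and 2.55 in WT cells, a fall of 0.47 log2 (SE 0.08, limma adjusted p = 0.0022). In knockout cells Anxa5 was at 7.97 and 9.06 and then at 7.62 and 8.10, groups that overlapped (log2 −0.10, SE 0.08, limma adjusted p = 0.34).

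**Figure D3:**
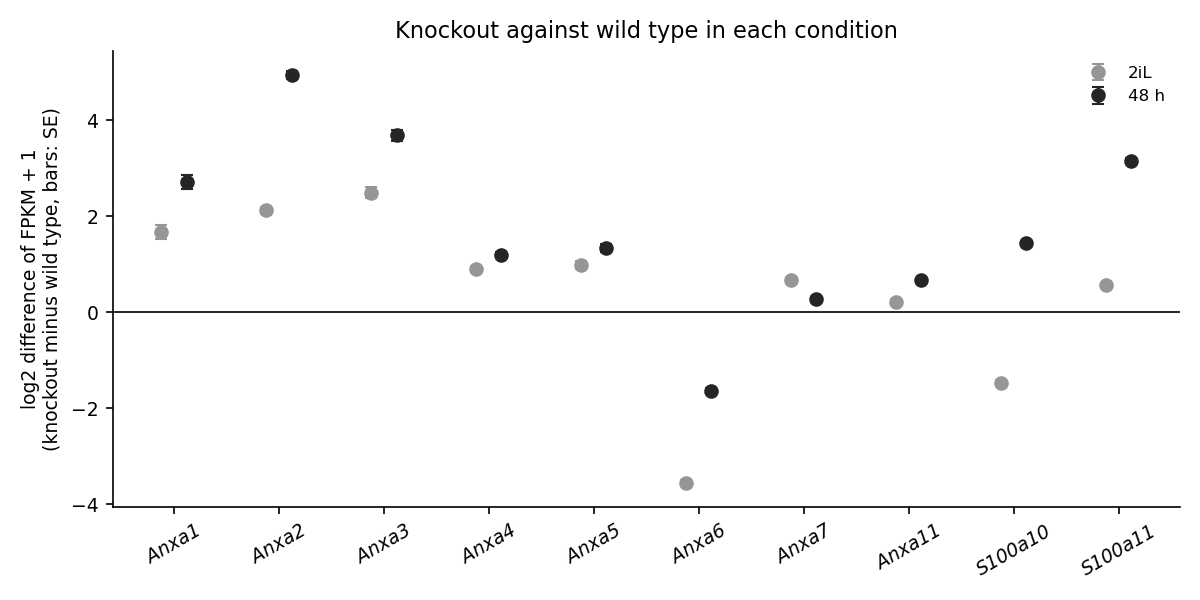
Difference between genotypes (log2 of FPKM + 1, knockout minus WT) of each member in 2iL (grey) and at 48 h (black), with bars for the standard error. Anxa6 lies below 0 in both media (−3.57 and −1.64), and S100a10 lies below 0 in 2iL (−1.47) and above it at 48 h (1.43).

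Between genotypes, 3 members were at least 2-fold higher in the knockout in 2iL on the log2(FPKM + 1) scale (Anxa1, Anxa2 and Anxa3) and 2 were at least 2-fold lower (Anxa6 and S100a10). Of all tested entries, 7.78% were higher and 4.61% lower by that much in 2iL. At 48 h 7 members were at least 2-fold higher (Anxa1, Anxa2, Anxa3, Anxa4, Anxa5, S100a10 and S100a11) and 1 was lower, Anxa6, against 11.4% and 8.57% of all tested entries. The members were chosen with these differences known, so the counts describe the members and nothing is read from them. The 48 h changes within each genotype share their libraries with these differences. The courses in the genotypes were opposite and without overlap in 6 members (Anxa1, Anxa2, Anxa3, Anxa6, S100a10 and S100a11), lower at 48 h in WT and higher in the knockout, against 9.24% of all tested entries. For Anxa1 and S100a11 the knockout change, and for Anxa3 the WT change, was not called.

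The make-up of the annexin transcripts followed from these levels. Summed over all 12 annexin genes of the table, the libraries held 128 FPKM in both WT libraries in 2iL, 107 and 105 in WT at 48 h, 167 and 186 in the knockout in 2iL, and 278 and 274 in the knockout at 48 h. In WT cells Anxa7, Anxa6 and Anxa11 led in all 4 libraries, and Anxa6 alone made up 26.9% and 27.2% of the sum in 2iL and 24.8% and 25.1% at 48 h. In knockout cells Anxa6 made up 1.23% and 1.05% in 2iL and 2.90% and 2.75% at 48 h. Anxa2 was 4.66% and 4.59% of the sum in WT in 2iL, 16.1% and 16.9% in the knockout in 2iL, and 42.1% and 41.5% in the knockout at 48 h. The share of Anxa7 was 33.9% and 33.6% in the knockout in 2iL and 12.2% in both knockout libraries at 48 h.

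**Figure D4:**
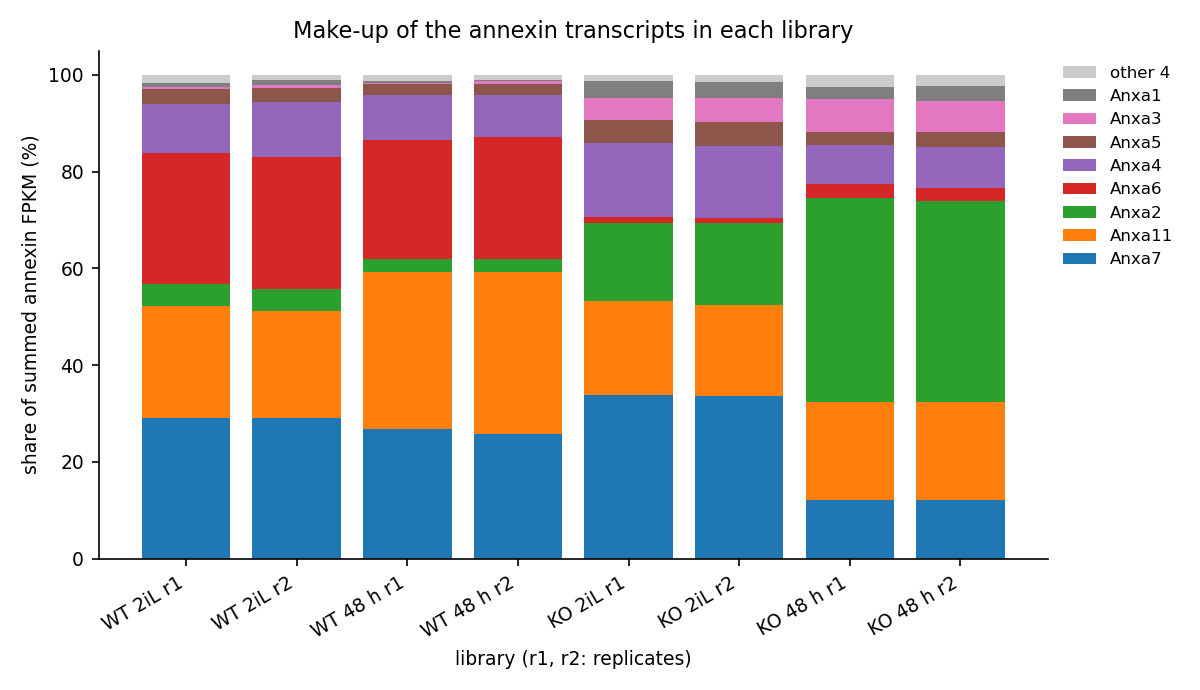
Share (%) of each annexin in the summed FPKM of all 12 annexin genes, 1 bar per library, with Anxa8, Anxa9, Anxa10 and Anxa13 joined as the other 4. The red segment of Anxa6 is wide in the 4 WT libraries (24.8% to 27.2%) and narrow in the 4 knockout libraries (1.05% to 2.90%), and the green segment of Anxa2 is widest in the knockout at 48 h (41.5% and 42.1%).

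By mean level, the order in WT cells in 2iL was S100a11, S100a10, Anxa7, Anxa6, Anxa11, Anxa4, Anxa2, Anxa5, Anxa1 and Anxa3, and no neighbours in that order overlapped between libraries. In WT cells at 48 h Anxa11 led, followed by Anxa7, Anxa6 and S100a11, of which Anxa6 and S100a11 overlapped, as did Anxa3 and Anxa1 at the bottom. In the knockout in 2iL the order began with S100a11, Anxa7 and Anxa11 and ended with Anxa6, and Anxa2, Anxa4 and S100a10 in the middle overlapped with their neighbours, as did Anxa3 and Anxa5. In the knockout at 48 h S100a11 and Anxa2 led, Anxa11 overlapped with S100a10, and Anxa5, Anxa6 and Anxa1 formed an overlapping bottom.

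Of the 4 other annexin genes, 1 passed the filter. Anxa8 was at 1.23 and 1.24 FPKM in WT cells in 2iL and at 0.520 and 0.525 at 48 h, a fall of 0.55 log2 (SE 0.11, limma adjusted p = 0.0049; −1.10 with a pseudocount of 0.1). In knockout cells Anxa8 was at 1.27 and 1.65 FPKM and then at 6.57 and 5.49, a rise of 1.52 log2 (SE 0.11, limma adjusted p = 4.7e-05). The course of Anxa8 thus had the same directions as that of Anxa2. Anxa9, Anxa10 and Anxa13 did not pass the filter.

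Among 15 other genes with an S100 name, 5 passed the filter and 6 were listed at 0 in every library. In WT cells 1 rose, 1 fell and 3 were not called, while 30.9% of all tested entries rose and 25.6% fell. The median was 0.15 log2 against 0.03 over all tested entries. In knockout cells 2 rose, 2 fell and 1 was not called, while 26.5% of all tested entries rose and 21.8% fell. The median there was −0.02 against 0.03. With 5 genes, both medians were the values of S100pbp, which was not called in either genotype. The other tested genes of the list changed in the knockout by −2.01 to −1.87 or by 1.86 to 2.75 log2. The knockout rises in this list were those of S100a6, a further annexin-binding S100 protein, from 1.67 and 4.10 FPKM to 25.7 and 22.0 (log2 2.75, SE 0.31, limma adjusted p = 3.4e-04), and of S100a16, from 1.54 and 1.59 to 8.91 and 7.76 (log2 1.86, SE 0.14, limma adjusted p = 4.5e-05). The falls were those of S100a13, which takes part in the release of FGF1, at −2.01 log2 (SE 0.21, limma adjusted p = 2.5e-04), and of S100a1 at −1.87 (SE 0.12, limma adjusted p = 2.5e-05). S100a1 rose in WT cells, from 1.58 and 1.38 FPKM to 2.92 and 2.69 (log2 0.62, SE 0.12, limma adjusted p = 0.0040). S100a13 fell there by 0.83 log2 (limma adjusted p = 0.013; −1.46 with a pseudocount of 0.1), a call that ended without WT 2iL replicate 2 (limma adjusted p = 0.08) or WT 48 h replicate 1 (limma adjusted p = 0.076).

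A list of 30 genes held partners of annexins and S100 proteins and genes of membrane repair, of which 23 passed the filter. In WT cells 7 rose, 11 fell and 5 were not called, with a median of −0.14 log2. In knockout cells 7 rose, 3 fell and 13 were not called, with a median of 0.13, each against 0.03 over all tested entries. Of those entries, 30.9% rose and 25.6% fell in WT, and 26.5% rose and 21.8% fell in the knockout. The WT rises include Pla2g4a, Plat and Dysf, which reached 1 FPKM only in libraries at 48 h. They thus entered the fit through the condition in which they were high, as did Plat among the knockout rises. Ahnak2, a further knockout rise, reached 1 FPKM only in knockout libraries. Ahnak, the giant scaffold that binds the Anxa2 and S100a10 tetramer, fell in WT cells from 8.22 and 8.20 FPKM to 0.745 and 0.681 (log2 −2.43, SE 0.09, limma adjusted p = 1.0e-06). In knockout cells Ahnak was at 10.1 and 8.84 FPKM and then at 10.7 and 12.1, which was not called (log2 0.24, SE 0.09, limma adjusted p = 0.062). Myof, a ferlin of membrane fusion and repair, fell in both genotypes. It went from 5.33 and 5.43 FPKM to 0.170 and 0.0997 in WT (log2 −2.49, limma adjusted p = 4.3e-07; −4.56 with a pseudocount of 0.1) and from 15.8 and 15.2 to 4.88 and 5.23 in the knockout (log2 −1.45, limma adjusted p = 9.2e-06).

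The list held genes of calpains, which are calcium-activated proteases. Capn1 fell in WT cells from 30.3 and 30.1 FPKM to 7.96 and 8.45 (log2 −1.76, limma adjusted p = 1.0e-06), and in knockout cells it was at 14.6 and 15.1 and then at 15.3 and 13.6, which was not called (limma adjusted p = 0.69). Capns1, the shared small subunit, fell by 0.79 log2 in WT (limma adjusted p = 2.3e-06) and by 0.36 in the knockout (limma adjusted p = 1.7e-04). Capn2 rose in WT cells by 1.30 log2 (limma adjusted p = 1.6e-05) and in knockout cells by 3.43, from 0.616 and 0.785 FPKM to 17.01 and 17.5 (limma adjusted p = 5.5e-07). Plaur, the receptor of urokinase in the plasminogen system that the tetramer also serves, rose in knockout cells from 7.99 and 9.21 FPKM to 22.7 and 25.3 (log2 1.38, limma adjusted p = 3.7e-05). In WT cells Plaur fell from 6.82 and 7.88 FPKM to 3.72 and 3.94 (log2 −0.79, SE 0.10, limma adjusted p = 4.0e-04). The kinase Src, which phosphorylates Anxa2, fell in both genotypes, from 15.3 and 15.7 FPKM to 6.23 and 5.44 in the knockout (log2 −1.27, limma adjusted p = 8.8e-05) and from 17 and 16.1 to 10.5 and 13.3 in WT (log2 −0.45, limma adjusted p = 0.0098). The formyl peptide receptors Fpr1 and Fpr2, through which Anxa1 acts on leukocytes, were listed at 0 in all 8 libraries.

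The entries with the pattern most like that of 3 members were named by Pearson correlation of log2(FPKM + 1) over the 8 libraries, among 4958 entries whose group means spanned at least 1 log2 unit. The libraries form 4 groups of 2 replicates, so these correlations rest on few separate levels. For Anxa2 the 5 nearest were Gcnt3 (r = 0.998), Csad, Prune1, Ddias and Scrn1 (r = 0.997), and 22 entries lay above 0.99. Gcnt3 itself was low, with group means from 0.0267 to 1.23 FPKM. Prune1, for example, had mean levels of 23.6 FPKM in WT in 2iL, 20.0 in WT at 48 h, 43.2 in the knockout in 2iL and 76.0 in the knockout at 48 h. For Anxa6 they were mt-Rnr1 (r = 0.998), Nkain1, Spint2, Rbm34 and Crabp1 (r = 0.991), with 5 entries above 0.99. The means of Crabp1, a retinoic acid binding protein, were 12.0, 10.7, 1.21 and 3.93 FPKM in the same order of groups. For S100a10 they were Pou4f2 (r = 0.983), Gm23245, Id1, Sfn and Lgals7 (r = 0.971), and 0 entries lay above 0.99. Id1, an inhibitor of bHLH factors, had means of 10.2, 1.65, 3.74 and 7.62 FPKM in the same order.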

How the data were processed

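Total RNA of 8 libraries was analysed. The authors deposited FPKM values per Ensembl gene, and per the submitters' processing notes STAR 2.5.0, Cufflinks 2.2.1 and the mm10 build were used. Per the labels, libraries were made with a dUTP protocol. Whether counting used strand, and the annotation, are not given in the sources used here. Of 41202 identifiers, 40071 matched a symbol, and 56 repeated entries were kept apart. Sequencing depth is unknown because read numbers were not used here, so no counting interval is given, and replicates of a group correlated at 0.987 or more on the log2 scale.

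Entries with at least 1 FPKM in at least 2 libraries (13172) were fitted as log2(FPKM + 1) with limma 3.58.1 in R 4.3.3 (4 group means, intensity trend, 4 residual and 3.11 prior degrees of freedom), and p-values were adjusted by Benjamini-Hochberg over all of them. Fold changes on this scale understate changes of low genes. The fit was tested on simulated data. Members and lists were chosen with earlier results of these data known. All members are named, and from the other lists up to 4 called genes with the largest changes per comparison. Further genes, such as Capns1, Fpr1, Fpr2 and cell type markers, were named outside this rule. Dlc1 and Prkca, which fell in WT, and Pla2g4a, Plat and Dysf, which rose there, were not described. Their WT changes were called and larger than that of Capns1. The small RNA libraries were not used here. Alternatives were pseudocounts of 0.1 and 0.5, other filters, scalings and fits, and each library left out. Promoter sequences are from RefSeq, GRCm38.p6.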

Additional observations from a re-analysis of the deposited data

Results flagged for a closer look

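In 6 members every library of the knockout lay higher at 48 h than in 2iL while every library of WT lay lower, and the difference between genotypes was not tested. Of all tested entries, 9.24% had this pattern. The 48 h change in the knockout minus that in WT was 2.90 log2 for S100a10, 2.82 for Anxa2, 2.59 for S100a11, 1.93 for Anxa6, 1.20 for Anxa3 and 1.04 for Anxa1. For Anxa1 and S100a11 the knockout part of that difference was not called, and for Anxa3 the WT part was not called.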

How the results depend on the processing

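The number of members that fell in the knockout was 2, and it was 1 with no filter on low values, with a replicate block or with no intensity trend, and 1 to 2 when single libraries were left out. The gene behind it was Anxa4 (limma adjusted p = 0.066, 0.051 and 0.057 in these settings). With a mean of at least 5 FPKM required, fewer entries were tested, and 2450 rose in WT and 2280 in the knockout, against 4074 and 3490. No 48 h change of a member reversed in these alternatives. The recomputed differences between genotypes moved by more than 1 SD in 100 cases and by less in 180, and none of these changed sign. In 217 further cases the setting could not move the value, since it changes the error, which genes are tested or a group outside the comparison. With a pseudocount of 0.1 the difference at 48 h was 4.38 log2 for Anxa1, against 2.71. The deviations of same-numbered libraries correlated weakly between groups, at −0.153 to 0.18. That check cannot show whether they shared a culture or day. The replicate block left 3958 rises and 3264 falls in WT and 3351 and 2751 in the knockout, and apart from Anxa4 it changed no call of a member. With 2 libraries per group, leaving out 1 leaves a lone library that is assumed to vary like the other groups. Unknown depth limits what can be said of levels under 1 FPKM, such as Anxa1 and Anxa3 in WT cells at 48 h.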
